A study of Mus musculus with 9 samples.

Results

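Oocyte and maternal-effect transcripts were examined in RNA sequencing data from mouse corona radiata cells. The set comprised 40 named genes, taken from the deposited matrix by symbol, of 54838 genes in all, and each of the 40 was found. The corona radiata is the innermost shell of cumulus cells, which derive from granulosa cells and surround the oocyte. Cells came from adult mice after ovarian stimulation with PMSG, which drives follicle growth, and hCG, which triggers ovulation (with the unexplained label J4). There were 3 genotypes with 3 libraries each: WT, DKO LXR (both liver X receptors knocked out, called LXR DKO here), and DKO LXR TG-AMH-LXRb (the same double knockout with a transgene, called transgenic here). All transgenic libraries thus also carry the double knockout. The promoter and coding sequence of the transgene and the deleted parts of the receptor genes are not described in the labels, and nothing says that the libraries of a group came from separate animals, so p-values reflect sample-to-sample spread alone, and that spread may be technical. Values are RPKM, reads scaled by exon length and by library size, which can be compared between genes.

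A growing oocyte makes and stores large amounts of RNA and then stops transcription. During growth it secretes the zona pellucida, a glycoprotein coat, and signals to the cumulus cells with the growth factors Gdf9 and Bmp15. Maternal-effect genes are transcribed in the mother's oocyte, and their products are needed by the early embryo. Many of them act in the subcortical maternal complex, a protein assembly beneath the egg membrane that includes Nlrp5, Ooep, Tle6 and Khdc3. When meiosis resumes at ovulation, part of the stored RNA is translated and part is degraded, in an order set by RNA-binding proteins such as Zar1 and Dazl and by the deadenylation adaptor Btg4.

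Promoter sequences are shown for 4 members, the pair with the highest and the pair with the lowest ratio of WT 1 to LXR DKO 1 among members with a single start in the table, at least 20 RPKM in the higher library and at least 200 bases free of annotated exons. They show what precedes the start of zona and arginine deiminase genes that were high in WT 1 and of Rfpl4 and Btg4. These 2 were 1.98-fold and 1.66-fold higher in LXR DKO 1, which is within the 2-fold limit used below. Each run is part of the 250 bases before the RefSeq start on GRCm38.p6, up to the nearest GENCODE M21 exon, and is given 5′ to 3′ on the gene's strand. Capitals mark CANNTG, the E-box read by basic helix-loop-helix factors such as Figla.
Zp3, chr5:135979855-135980098, plus strand: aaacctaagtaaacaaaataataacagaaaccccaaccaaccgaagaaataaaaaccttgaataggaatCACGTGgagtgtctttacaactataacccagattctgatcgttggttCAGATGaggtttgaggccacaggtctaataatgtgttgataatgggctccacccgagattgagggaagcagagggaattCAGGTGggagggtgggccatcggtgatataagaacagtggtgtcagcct
Padi6, chr4:140742644-140742893, minus strand: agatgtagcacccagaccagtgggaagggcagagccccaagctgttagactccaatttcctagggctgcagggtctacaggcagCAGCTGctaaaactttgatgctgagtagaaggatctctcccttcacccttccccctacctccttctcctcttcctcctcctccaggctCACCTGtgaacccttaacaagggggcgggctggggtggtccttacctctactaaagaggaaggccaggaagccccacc
Rfpl4, chr7:5116951-5117161, minus strand: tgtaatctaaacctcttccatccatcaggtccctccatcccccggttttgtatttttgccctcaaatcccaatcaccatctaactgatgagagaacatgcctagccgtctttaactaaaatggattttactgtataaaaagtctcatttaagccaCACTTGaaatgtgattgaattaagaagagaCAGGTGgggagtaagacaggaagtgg
Btg4, chr9:51115751-51116000, plus strand: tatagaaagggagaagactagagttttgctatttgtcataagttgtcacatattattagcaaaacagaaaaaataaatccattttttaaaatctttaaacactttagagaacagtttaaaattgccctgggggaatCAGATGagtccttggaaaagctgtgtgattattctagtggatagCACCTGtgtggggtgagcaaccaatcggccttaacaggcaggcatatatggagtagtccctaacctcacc
The Zp3 stretch held 3 E-boxes and each of the other stretches 2. Of the 40 members, 32 matched a RefSeq promoter; Zp1, Zp2, Npm2, Nlrp14, Mos, Dppa3, Gdf9 and Bcl2l10 did not. In the 250 bases before the start, searched on both strands with overlapping matches of different motifs kept, CANNTG stood in 29 of 32 member promoters (90.6%) and in 66.2% of all 32851 promoters. It stood in 12 of 14 promoters of members that were at least 2-fold higher in WT 1 and in 17 of 18 of the others. TAATTG, a homeobox motif, stood in 4 of 32 (12.5%) against 7.17% of all, and TATAAA in 4 of 32 (12.5%) against 12.4% of all. These counts describe letters in a window and not bound sites.

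Between 31086718 and 47038045 reads set the RPKM scale of a library, and every member's values were whole numbers of reads when worked back. For a gene with 1 kb of exons, 3 reads came to 0.0638 to 0.0965 RPKM depending on the library. All 17 granulosa and cumulus markers (among them Foxl2, Inha and Tnfaip6) had reads in every library, with summed levels of 747 to 1497 RPKM. Other cell types were also present: the summed level of 7 oviduct epithelium markers was 386 to 2423 RPKM, that of 6 macrophage markers 362 to 1162 RPKM and that of 5 erythroid markers 58.6 to 9880 RPKM, highest in WT 3. The 6 male germ cell markers summed to at most 0.212 RPKM in a library.

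WT 1 and LXR DKO 1 held most of the oocyte RNA. The linker histone gene H1foo (ENSMUSG00000042279, chr6:115944938-115950236), which encodes the oocyte's own H1 histone, measured 256, 0.0675 and 0.354 RPKM across WT 1 to 3, 235, 6.05 and 0.70 across LXR DKO 1 to 3, and 6.43, 26.1 and 13.6 across transgenic 1 to 3. These values rest on 13535, 3 and 20 reads across WT, 11828, 243 and 29 across LXR DKO, and 358, 974 and 556 across transgenic libraries. WT 1 and LXR DKO 1 thus stood far above the remaining libraries of their own groups, and the transgenic libraries lay between. The summed level of the 40 members was also highest in these 2 libraries, with 1692, 24.2 and 28.7 RPKM across WT, 1257, 42.4 and 20.1 across LXR DKO, and 57.4, 173 and 105 across transgenic libraries. Members at or above 1 RPKM numbered 39 in WT 1 and 33 in LXR DKO 1, but 2 in WT 2, 2 in WT 3, 9 in LXR DKO 2, 1 in LXR DKO 3, and 12, 18 and 16 across transgenic 1 to 3. In such bulk RNA, fewer oocytes and less RNA per oocyte cannot be told apart, and WT 1 and LXR DKO 1 are each 1 library, so their difference cannot be told apart from genotype or from collection and has no replicate check.

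The question asked of WT 1 and LXR DKO 1 was which oocyte transcripts differ between 2 libraries whose H1foo levels are alike. H1foo was 1.09-fold higher in WT 1 (interval 1.06 to 1.12) and Gdf9 1.07-fold higher in LXR DKO 1 (1.04 to 1.10). Intervals here are exact 95% Clopper-Pearson intervals of the reads and cover counting error only. With a fold of at least 2 and at least 1 RPKM in the higher library, 19 of 40 members were higher in WT 1, 1 was higher in LXR DKO 1, 19 lay within 2-fold, and Figla was below 1 RPKM in both. Over the 16310 genes with at least 1 RPKM in either library, 4.14% were higher in WT 1 and 4.42% higher in LXR DKO 1. The split depends on the scale: with each library divided by the median of its members (36.5 RPKM in WT 1, 13.2 RPKM in LXR DKO 1, 33 members), 9 were higher in WT 1 and 18 in LXR DKO 1. Every direction below is on the RPKM scale, on which H1foo and Gdf9 were close. The members nearest the limit were Zar1l (2.16-fold higher in WT 1) inside it and Lhx8 (1.72-fold) outside, and on the other side Nlrp4f (3.20-fold higher in LXR DKO 1) inside and Rfpl4 (1.98-fold) outside.

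**Figure D1:**
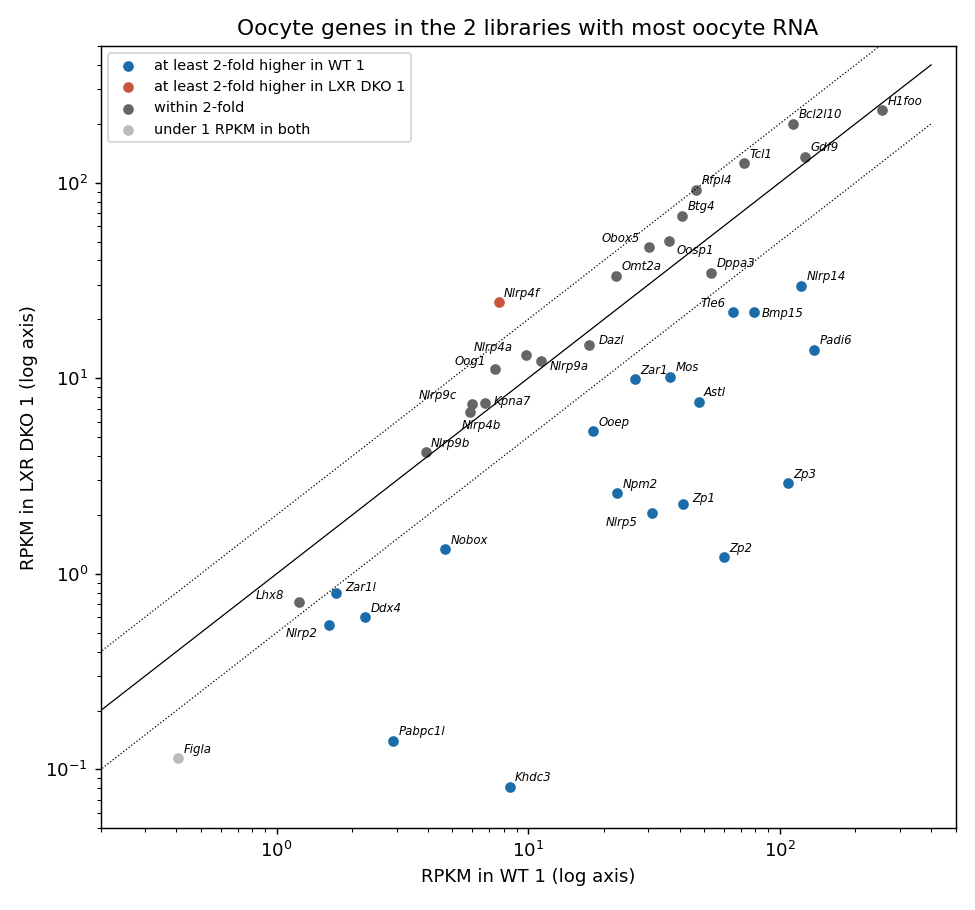
RPKM of each member in WT 1 (horizontal, log axis) against LXR DKO 1 (vertical, log axis), 1 point per gene; the solid line marks equal values and the dotted lines a 2-fold difference. On the RPKM scale 19 genes with at least 1 RPKM in WT 1 lie beyond the lower dotted line and Nlrp4f beyond the upper. Figla, below 1 RPKM in both libraries, also lies beyond the lower line and is not counted. Divided by the members' median the counts are 9 and 18.

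Zona pellucida genes and the gene of the protease that hardens the zona were all higher in WT 1 (4 of 4). Zp3 (ENSMUSG00000004948, chr5:135980099-135988624), the zona glycoprotein long studied as a sperm receptor, measured 108, 0.0204 and 0.0803 RPKM across WT, 2.90, 0.113 and 0.0438 across LXR DKO, and 0.147, 0.365 and 0.20 across transgenic libraries. It was 37.1-fold higher in WT 1 than in LXR DKO 1 (31.7 to 43.7), and the other 7 libraries lay at or below 0.365 RPKM. Zp2, whose product is cleaved after fertilization to block further sperm, measured 60.2 RPKM in WT 1 against 1.22 RPKM in LXR DKO 1, a 49.5-fold difference (41.8 to 58.9), with 0.0297 to 0.195 RPKM in the other libraries. Zp1, which crosslinks zona filaments, measured 41.4 and 2.29 RPKM (18.1-fold, 15.7 to 21.1), and was 0 in WT 2 and WT 3. The members of this group thus differed far more between the 2 libraries than H1foo did, in the same direction. Astl encodes ovastacin, the cortical granule protease that cleaves Zp2. Astl measured 47.6 RPKM in WT 1 against 7.57 RPKM in LXR DKO 1 (6.29-fold, 5.84 to 6.78), and at most 0.578 RPKM elsewhere.

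Of 7 genes of the subcortical maternal complex and its associates, 6 were higher in WT 1 and 1 was higher in LXR DKO 1. Khdc3 (ENSMUSG00000092622, chr9:73101836-73104438), a KH-domain subunit needed for even chromosome division in early embryos, had the highest ratio of all members. It measured 8.44 RPKM (762 reads) in WT 1 and 0.0814 RPKM (7 reads) in LXR DKO 1, 104-fold apart (50.1 to 259). The other libraries lay between 0.0437 and 0.101 RPKM, a range that held LXR DKO 1. Of them only transgenic 3, also with 7 reads, was above LXR DKO 1. Padi6 (ENSMUSG00000040935, chr4:140727355-140742643), a peptidylarginine deiminase of the egg's cytoplasmic lattices, measured 137, 0.0213 and 0.00840 RPKM across WT, 14.0, 0.425 and 0.0458 across LXR DKO, and 0.307, 2.54 and 1.37 across transgenic libraries. Its level was 9.80-fold higher in WT 1 (9.29 to 10.3), and LXR DKO 1, LXR DKO 2 and all 3 transgenic libraries stood above WT 2 and WT 3. Nlrp5, also called Mater, without which embryos stop at early cleavage, measured 31.2 and 2.04 RPKM (15.3-fold, 13.8 to 16.9). Ooep, a KH-domain subunit also called Floped, measured 18.1 and 5.38 RPKM (3.36-fold, 3.04 to 3.73). Nlrp2 was low in both, at 1.62 and 0.550 RPKM (2.94-fold, 2.28 to 3.83). Nlrp4f (ENSMUSG00000032999, chr13:65177111-65205977) went the other way. It measured 7.64, 0 and 0.0110 RPKM across WT, 24.4, 0.193 and 0.0899 across LXR DKO, and 0.909, 2.83 and 2.19 across transgenic libraries, and was 3.20-fold higher in LXR DKO 1 than in WT 1 (3.01 to 3.41). The Nlrp4 and Nlrp9 genes have close copies, and how the authors treated reads with several matching places is not given in the sources used here, so their levels are uncertain.

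Genes of RNA storage and decay were divided, with 4 of 6 higher in WT 1 and 2 within 2-fold. Pabpc1l, the poly(A)-binding protein of oocytes and early embryos, measured 2.91 RPKM in WT 1 against 0.140 RPKM in LXR DKO 1 (20.8-fold, 12.6 to 36.8). LXR DKO 1 was no higher for Pabpc1l than WT 3, at 0.414 RPKM, or transgenic 2, at 0.142 RPKM. The germ cell helicase gene Ddx4 measured 2.25 and 0.601 RPKM (3.75-fold, 2.90 to 4.89). Zar1, which keeps maternal RNA stored, measured 26.5 and 9.86 RPKM (2.69-fold, 2.53 to 2.85), and its relative Zar1l 1.73 and 0.799 RPKM (2.16-fold, 1.39 to 3.44). The translational activator gene Dazl was nearly level, at 17.5 and 14.7 RPKM (1.19-fold, 1.13 to 1.26). Btg4 (ENSMUSG00000032056, chr9:51060901-51119875), which brings the CCR4-NOT deadenylase to maternal RNA, measured 40.9, 0.0740 and 0.191 RPKM across WT, 67.8, 1.12 and 0.283 across LXR DKO, and 2.07, 8.44 and 5.10 across transgenic libraries. Btg4 was 1.66-fold higher in LXR DKO 1 than in WT 1 (1.60 to 1.72), inside the 2-fold limit.

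The oocyte's secreted growth factors differed from each other. Gdf9 (ENSMUSG00000018238, chr11:53431023-53437904), which drives cumulus expansion genes, measured 126, 0.505 and 0.701 RPKM across WT, 136, 2.97 and 0.756 across LXR DKO, and 3.69, 10.9 and 6.89 across transgenic libraries. Bmp15 (ENSMUSG00000023279, chrX:6314107-6320721), its partner on the X chromosome, measured 79.1, 0.00883 and 0.0695 RPKM across WT, 21.9, 0.156 and 0.0189 across LXR DKO, and 0.557, 0.904 and 1.25 across transgenic libraries. Bmp15 was 3.62-fold higher in WT 1 than in LXR DKO 1 (3.47 to 3.77), whereas Gdf9 was level. Bmp15 thus stood at 62.6% of Gdf9 in WT 1 and 16.1% in LXR DKO 1.

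Among kinase signalling and survival genes, 1 of 3 was higher in WT 1. Mos, the kinase that starts the MAP kinase cascade and holds the egg at metaphase II, measured 36.7, 0.0186 and 0.0147 RPKM across WT, 10.2, 0.268 and 0.10 across LXR DKO, and 0.0745, 0.289 and 0.142 across transgenic libraries. Mos was 3.61-fold higher in WT 1 (3.30 to 3.95), and the transgenic values overlapped those of LXR DKO 2 and LXR DKO 3. Bcl2l10 (ENSMUSG00000032191, chr9:75347758-75351632), a BCL2 family member abundant in eggs, measured 113, 0.354 and 0.680 RPKM across WT, 199.9, 6.71 and 0.926 across LXR DKO, and 7.38, 34.2 and 12.4 across transgenic libraries. The AKT coactivator gene Tcl1 measured 71.9 RPKM in WT 1 against 125 RPKM in LXR DKO 1, with 3.90, 15.9 and 9.11 RPKM across transgenic libraries. Bcl2l10 and Tcl1 were 1.76-fold (1.71 to 1.82) and 1.74-fold (1.69 to 1.80) higher in LXR DKO 1, both within the limit.

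Of 4 chromatin and nuclear transport genes, only the histone chaperone gene Npm2, which opens sperm chromatin, was past the limit, at 22.6 RPKM in WT 1 against 2.58 RPKM in LXR DKO 1 (8.76-fold, 7.20 to 10.7). Dppa3, also called Stella, which protects the maternal genome from demethylation, measured 53.5, 0.818 and 0.620 RPKM across WT, 34.6, 1.68 and 0.162 across LXR DKO, and 1.67, 9.27 and 3.34 across transgenic libraries. The ratio of Dppa3 was 1.54 (1.44 to 1.66). The importin gene Kpna7 measured 6.74 and 7.43 RPKM. Among 6 further Nlrp genes, only Nlrp14 was past the limit, at 122 and 29.7 RPKM (4.11-fold, 3.97 to 4.24). Nlrp4a, Nlrp4b, Nlrp9a, Nlrp9b and Nlrp9c ranged from 3.92 to 11.3 RPKM in WT 1 and from 4.18 to 13.2 RPKM in LXR DKO 1, with ratios of 0.744 to 0.936.

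Transcription factor genes of the growing oocyte were low in both libraries. Nobox, a homeobox factor needed for follicle growth, measured 4.68 and 1.34 RPKM (3.50-fold, 2.83 to 4.35), Lhx8 1.23 and 0.716 RPKM, and Figla 0.408 and 0.114 RPKM, where Figla's ratio of 3.57 had an interval of 1.14 to 14.8. Obox5, an oocyte homeobox gene with close copies, was more abundant, at 30.2 RPKM in WT 1 against 46.7 RPKM in LXR DKO 1. None of 4 further oocyte genes passed the limit. Rfpl4 (ENSMUSG00000035191, chr7:5109787-5116950), a RING-finger-like gene of oocytes, measured 46.5, 0.0472 and 0.0619 RPKM across WT, 92.1, 2.87 and 0.135 across LXR DKO, and 4.06, 11.3 and 8.38 across transgenic libraries. It was 1.98-fold higher in LXR DKO 1 (1.90 to 2.07), the value just outside the limit. The secreted protein gene Oosp1 measured 36.5 and 50.3 RPKM, and the egg maturation gene Omt2a, which has a near copy, 22.4 and 33.4 RPKM.

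Levels were next expressed within each library as a percentage of H1foo, a reference chosen after the values were seen, so that libraries with little oocyte RNA could be set beside the others. The members at least 2-fold higher in WT 1 (18 without Tle6) were chosen from WT 1 and LXR DKO 1. The gap between these 2 libraries is fixed by the choice, and the distance of any other library from WT 1 is partly set by it. The median of these members was 11.3% of H1foo in WT 1 and 1.04% in LXR DKO 1. It was 1.56% in LXR DKO 2 and 1.39%, 1.25% and 1.49% across transgenic 1 to 3. The 17 members within 2-fold (without H1foo and Oog1) had medians of 8.76%, 14.2% and 14.2% in WT 1, LXR DKO 1 and LXR DKO 2 and of 18.7%, 16.9% and 20.2% across transgenic 1 to 3. In the 4 other libraries with at least 200 reads of H1foo, the members higher in WT 1 had medians between 1.25% and 1.56% of H1foo. These lay nearer to the LXR DKO 1 value than to that of WT 1. That nearness is partly set by choosing members high in WT 1, here and with the other measures below, and serves as description. WT 1 was the only WT library with that many reads of H1foo, so here too genotype and library cannot be told apart. With Gdf9 as the reference the medians of the same members were 22.8% in WT 1, 1.79% in LXR DKO 1, 3.17% in LXR DKO 2, and 2.43%, 2.99% and 2.94% across transgenic 1 to 3. Of the summed RPKM of the members without Tle6 and Oog1, those higher in WT 1 made up 46.4% in WT 1, 9.23% in LXR DKO 1, 7.82% in LXR DKO 2, and 6.90%, 7.61% and 8.71% across transgenic 1 to 3.

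Single genes followed this division, which for the members higher in WT 1 is partly set by their choice. Zp3 stood at 42.1% of H1foo in WT 1, 1.24% in LXR DKO 1, 1.87% in LXR DKO 2, and 2.28%, 1.40% and 1.47% across transgenic 1 to 3. Padi6 stood at 53.4% in WT 1, at 5.94% and 7.03% in LXR DKO 1 and 2, and at 4.77%, 9.74% and 10.1% across transgenic 1 to 3. Rfpl4 went the other way, from 18.2% in WT 1 to 39.2% and 47.5% in LXR DKO 1 and 2 and 63.1%, 43.3% and 61.4% across transgenic 1 to 3. Gdf9 kept between 41.9% and 57.7% of H1foo in all 6. Not all members separated WT 1 from the rest evenly: Mos stood at 14.3% in WT 1, 4.33% and 4.43% in LXR DKO 1 and 2, but 1.16%, 1.11% and 1.04% across transgenic 1 to 3, and Astl at 18.6% in WT 1, 3.22% in LXR DKO 1 and 0.579% to 2.22% in the other libraries. Residual reads limit this comparison. The members higher in WT 1 summed to 0.785, 1.19 and 0.902 RPKM in WT 2, WT 3 and LXR DKO 3, which hold 3, 20 and 29 H1foo reads, against 2.39 RPKM in LXR DKO 2 and 2.63, 11.6 and 7.19 RPKM across transgenic 1 to 3, and the part of that residual level in the low libraries was not tested.

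**Figure D2:**
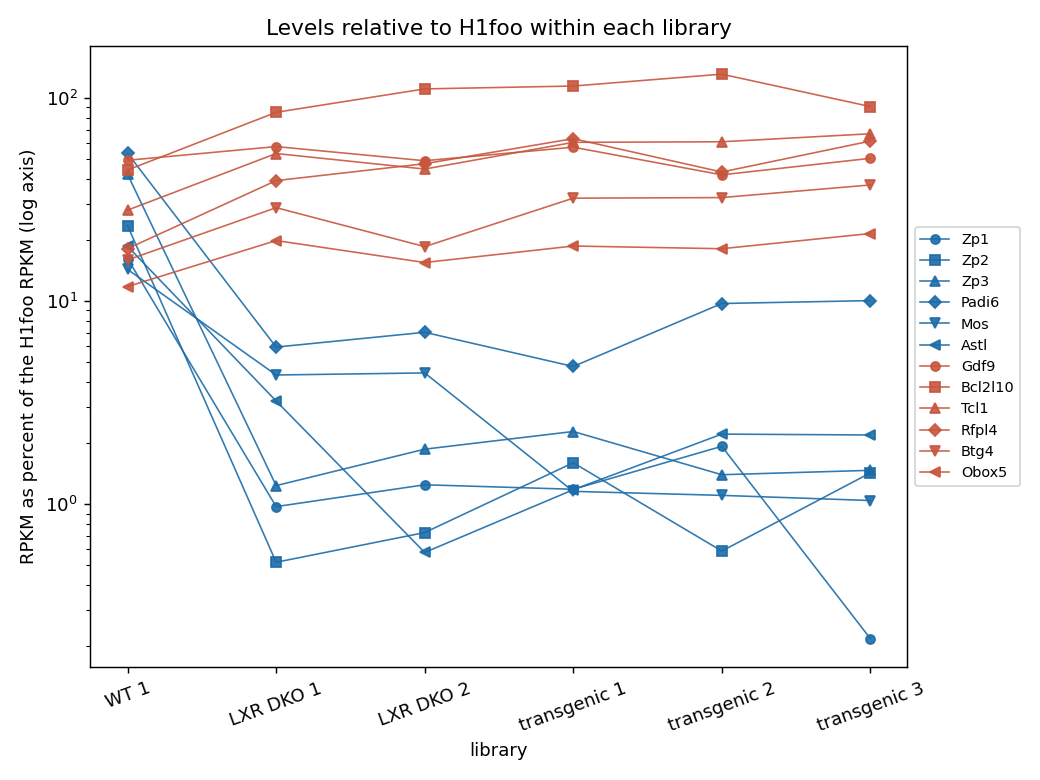
RPKM of 12 members as a percentage of the H1foo RPKM of the same library (log axis) in the 6 libraries with at least 200 H1foo reads; lines join the values of a gene and carry no order of libraries. The 6 blue genes were chosen as at least 2-fold higher in WT 1 on the RPKM scale. They lie between 14.3% and 53.4% in WT 1 and at or below 10.1% elsewhere, a gap that the choice partly sets. The 6 red genes, within 2-fold, lie between 11.8% and 131% throughout.

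Libraries were compared by the relative levels of their members. Across members with at least 3 reads in both libraries (Tle6 and Oog1 left out), the Pearson correlation of log2 RPKM between LXR DKO 1 and transgenic 1 to 3 was 0.877, 0.935 and 0.938 (34, 36 and 36 members). Between WT 1 and the same 3 libraries it was 0.622, 0.656 and 0.657, and between WT 1 and LXR DKO 1 it was 0.724 (38 members). LXR DKO 2 correlated at 0.790 with LXR DKO 1 and at 0.580 with WT 1 (32 members each). For LXR DKO 3 the 2 values lay closer together, at 0.63 and 0.55 (26 members each). The members share each library's oocytes and depth, so these coefficients are descriptions.

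The design compares 3 genotypes, and with all 9 libraries no member tested passed the threshold. Of 40 members, 19 reached 1 RPKM in at least 3 libraries and were tested with limma on log2(RPKM + 1) among 16422 genes. With Benjamini-Hochberg adjustment 0 of 19 were called in LXR DKO minus WT, where 3.47% of all genes were called higher and 7.12% lower. The count was also 0 in transgenic minus LXR DKO (0.0548% and 0.0609% of all genes) and 0 in transgenic minus WT (5.15% and 6.72%). At an unadjusted p under 0.05 the counts were 0, 0 and 1, the last being Tle6, and limma-voom on the worked-back reads also called 0 in each. The share of all genes under that unadjusted limit was not counted, here or below, so such counts stand without a background. The median log2 fold change of the 19 was 0.50, -0.20 and 0.18 in these 3 comparisons, against 0.017, 0.013 and 0.015 over all genes, and the standard errors of single members were large, with 1 oocyte-rich library in each of WT and LXR DKO. H1foo, for example, had a log2 fold change of 0.98 ± 2.28 (SE) in LXR DKO minus WT (limma, adjusted p = 0.835) and 1.00 ± 2.28 in transgenic minus WT (adjusted p = 0.799). Comparisons between genotypes share libraries, so their values are not independent.

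With WT 1 and LXR DKO 1 left out, most oocyte transcripts were higher in every transgenic library than in WT 2 and WT 3. Both were left out for their high levels of these same members, so WT 2 and WT 3 are the low WT libraries by that choice. The direction against WT and the p-values below are partly set by it and serve as descriptions. Over all 40 members with no filter, all 3 transgenic libraries lay above both WT 2 and WT 3 for 32 members, against 14.5% of 37863 genes with a value above 0, and below both for 1 (Tle6), against 14.5%. The exceptions besides Tle6 were Ddx4, Nobox, Figla, Npm2, Pabpc1l, Zar1l and Khdc3, whose groups overlapped. No minimum of reads was set, and some of the 32 rest on few reads. Nlrp2 had 1 read in transgenic 1 and 1 in WT 3, and Lhx8 had 3 and 3. All 3 transgenic libraries lay above LXR DKO 2 and LXR DKO 3 for 26 members, against 13.8% of all genes, and below both for 0, against 10.4%. The members share each library's oocyte RNA, so the 32 are not 32 separate results. Of the 40, 12 reached 1 RPKM in at least 3 of the 7 libraries; all 12 did so in the 3 transgenic libraries and 10 of them in neither WT library, so the number of calls among them is no measure of the set. In transgenic minus WT 10 of these 12 were called higher, against 2.82% of 16127 genes, and 0 lower, against 4.63%, while at an unadjusted p under 0.05 there were 11 higher and 1 lower. H1foo rose by 3.58 ± 0.70 (limma, adjusted p = 0.0335), Bcl2l10 by 3.39 ± 0.73 (0.0425), Tcl1 by 3.09 ± 0.60 (0.0334), Rfpl4 by 2.99 ± 0.56 (0.0294), Btg4 by 2.31 ± 0.46 (0.0347) and Gdf9 by 2.25 ± 0.46 (0.0372). Oosp1, Obox5 and Omt2a rose by 1.93, 1.82 and 1.80 (adjusted p = 0.0465, 0.0488 and 0.0427). Markers of other cell types moved with this comparison, and none of those listed next was at 0 in any library. The 6 macrophage markers summed to 527 and 1162 RPKM in WT 2 and WT 3 and to 411, 362 and 506 RPKM across transgenic 1 to 3, and 2 of 6 (C1qa and Cd68) were called lower. The 17 granulosa and cumulus markers summed to 1497 and 1242 RPKM against 818, 970 and 748 RPKM, and of the 15 tested 4 were called lower and 1 higher. Both sums were lower in every transgenic library, whereas those of the 7 oviduct markers overlapped (386 and 1993 RPKM against 1788, 2423 and 2344 RPKM, with 0 of 7 called). With all 9 libraries the oviduct marker Cdh1 was called higher in transgenic minus WT (1.80 ± 0.49, limma, adjusted p = 0.0466). Epcam, Foxj1, Krt8 and Krt18 were not called there. The part of these cells in the result was not tested.

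Against the same LXR DKO background without the transgene, the members were not called except Oog1. In transgenic minus LXR DKO without WT 1 and LXR DKO 1, 1 of 12 was called higher, against 0.0496% of all genes, and 0 lower, against 0.0558%, with 11 higher and 0 lower at an unadjusted p under 0.05. All 12 reached 1 RPKM in the 3 transgenic libraries, and LXR DKO 1 was left out for its high levels of the members. The count of 11 is thus partly set by the filter and by that choice. H1foo measured 6.05 and 0.70 RPKM in LXR DKO 2 and 3 against 6.43, 26.1 and 13.6 RPKM in the transgenic libraries, a log2 fold change of 2.05 ± 0.70 (limma, adjusted p = 0.533). LXR DKO 2 lay just below transgenic 1. Here the macrophage markers summed to 1102 and 705 RPKM in LXR DKO 2 and 3 against 411, 362 and 506 RPKM in the transgenic libraries, and the oviduct markers to 1065 and 803 RPKM against 1788, 2423 and 2344 RPKM. Neither pair of groups overlapped, 0 of 6 and 0 of 7 were called without WT 1 and LXR DKO 1, and with all 9 libraries Cd68, a macrophage marker, was called lower (-1.15 ± 0.15, adjusted p = 0.0402); their part in the result was not tested. In LXR DKO minus WT 0 of 12 were called higher, against 2.09% of all genes, and 1 lower (Oog1), against 4.74%, with 0 higher and 2 lower at an unadjusted p under 0.05.

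Oog1 (ENSMUSG00000096576, chr12:87602688-87608850, plus strand), an oocyte gene with a leucine-rich repeat product, did not follow the other members. It measured 7.37, 2.13 and 3.13 RPKM across WT, 11.2, 0.268 and 0.248 across LXR DKO, and 4.74, 5.51 and 6.23 across transgenic libraries. WT 2 and WT 3, with at most 0.354 RPKM of H1foo, thus had 7.93 and 11.7 times the Oog1 of LXR DKO 2, which had 6.05 RPKM of H1foo. With all libraries no contrast passed: -0.83 ± 0.80 in LXR DKO minus WT, 1.27 ± 0.80 in transgenic minus LXR DKO and 0.44 ± 0.80 in transgenic minus WT (limma, adjusted p = 0.563, 0.746 and 0.742). Without WT 1 and LXR DKO 1 it was lower in LXR DKO than in WT (-1.51 ± 0.18, adjusted p = 0.00998), higher in transgenic than in LXR DKO (2.36 ± 0.16, adjusted p = 0.0127) and higher in transgenic than in WT (0.85 ± 0.16, adjusted p = 0.0327). LXR DKO 1 had the highest Oog1 and was left out for its oocyte RNA, leaving LXR DKO 2 and 3 beside WT 2 and WT 3. These calls are thus partly set by which libraries were left out. The spliced sequence of Oog1 is 99.55% identical to that of Gm2042 over 2442 bases and 98.817% identical to that of Gm10436 over 2451 bases, both also on chromosome 12. Gm2042 measured 6.56, 1.78 and 2.58 RPKM across WT, 9.42, 0.194 and 0.113 across LXR DKO, and 3.50, 4.37 and 5.29 across transgenic libraries, and Gm10436 was likewise lowest in LXR DKO 2 and 3, at 0.141 and 0.0779 RPKM. Reads of these copies may be shared out between them, so the level of each is uncertain. Other genes near Oog1 were also lower in LXR DKO libraries, by varying amounts. Of 27 protein-coding genes with a start within 1 megabase and at least 1 RPKM in a library (Oog1 and both copies included), 11 shared a pattern. All 3 LXR DKO libraries lay below all WT and transgenic libraries. That pattern held for 2.15% of 18079 genes with at least 1 RPKM in a library, which were not limited to protein-coding genes. Gm16381 measured 7.77, 10.3 and 5.54 RPKM across WT, 1.14, 1.13 and 1.27 across LXR DKO, and 9.31, 7.29 and 5.98 across transgenic libraries. The others were Adck1, Gm2001, Gm2016, Gm2022, Gm2035, Gm5662, Gm6803, Gm8332, Irf2bpl and Snw1, all named after their values were seen and given no test. Some gaps were small, as Irf2bpl measured 41.7 to 48.4 RPKM across LXR DKO and 51.6 to 80.4 RPKM in the other libraries. Unlike these 11 genes, Oog1 and its copies were highest in LXR DKO 1. Several of the 11 may be close copies too, which was not tested.

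**Figure D3:**
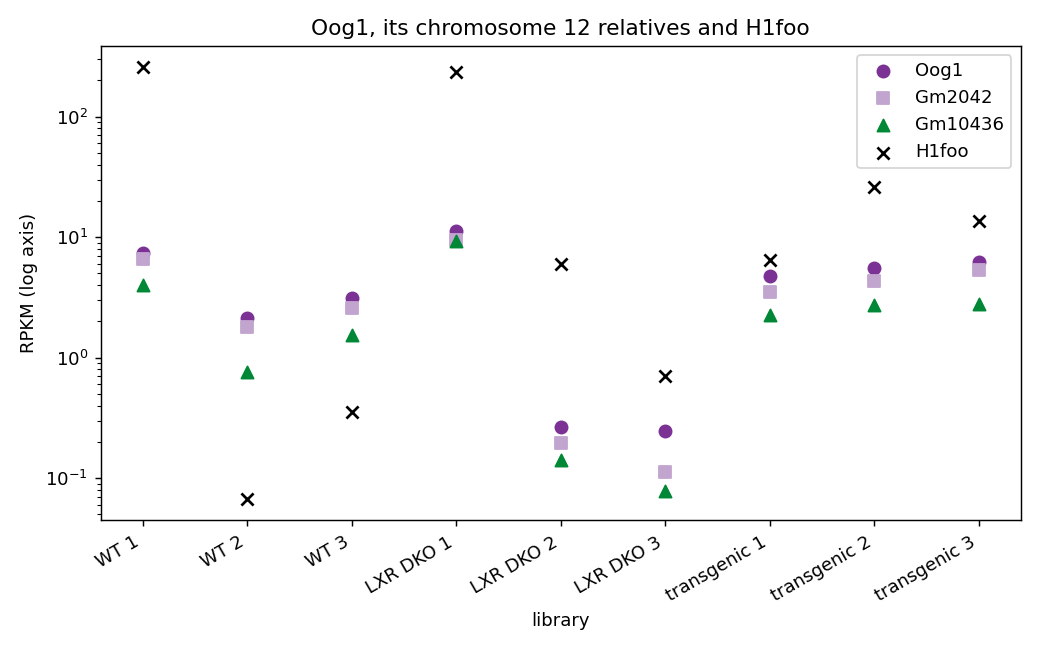
RPKM (log axis) of Oog1, of its near-identical copies Gm2042 and Gm10436 and of H1foo in the 9 libraries. The 3 copies lie between 0.0779 and 0.268 RPKM in LXR DKO 2 and 3 and at or above 0.763 RPKM in every other library, whereas H1foo is lowest in WT 2, at 0.0675 RPKM.

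Tle6 (ENSMUSG00000034758, chr10:81590904-81601073, minus strand), a Groucho-family subunit of the subcortical maternal complex, had a clear level throughout. Tle6 measured 65.5, 18.9 and 21.3 RPKM across WT, 21.7, 11.6 and 14.9 across LXR DKO, and 14.5, 14.3 and 15.98 across transgenic libraries, so its level did not mark oocyte RNA alone. It was 3.02-fold higher in WT 1 than in LXR DKO 1 (2.89 to 3.15). All 3 transgenic libraries lay below all 3 WT libraries. The log2 fold change of -0.96 ± 0.42 did not pass in limma (adjusted p = 0.159). Without WT 1 and LXR DKO 1 it was -0.41 ± 0.12 (adjusted p = 0.097), and LXR DKO minus WT was -0.58 ± 0.14 (adjusted p = 0.0547).

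Other oocyte genes, in lists of 109 genes by function of which 106 were in the matrix, were also compared between WT 1 and LXR DKO 1 on the RPKM scale: 15 were at least 2-fold higher in WT 1, 7 higher in LXR DKO 1, 71 within 2-fold and 13 below 1 RPKM in both. Over the 16310 genes with at least 1 RPKM in either library, 4.14% were higher in WT 1 and 4.42% in LXR DKO 1. The counts by list below are small and are to be read beside these shares. Of 35 genes of oocyte-specific families, 9 were higher in WT 1 and 5 in LXR DKO 1. The most abundant of these, E330021D16Rik and Obox2, measured 97.9 and 72.5 RPKM in WT 1 against 126 and 85.6 RPKM in LXR DKO 1, and Oas1d, an oocyte-enriched member of the oligoadenylate synthetase family, 70.0 and 107 RPKM. Oog4 (9.02 against 1.90 RPKM) and Fbxw26 (4.84 against 1.12 RPKM) had the largest ratios towards WT 1, and Tcl1b2 (12.2 against 35.5 RPKM) and Tcl1b1 (25.2 against 63.1 RPKM) towards LXR DKO 1. These families have close copies, which limits their values as above.

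None of 20 meiotic cell cycle genes passed the fold limit, with 16 within it. The spindle checkpoint kinase gene Bub1b measured 27.1 and 28.7 RPKM in WT 1 and LXR DKO 1 against 3.70 to 5.30 RPKM in the other libraries, and the cyclin gene Ccnb2 20.7 and 18.8 RPKM. Cdc20, the activator of the anaphase-promoting complex, measured 18.7 and 20.7 RPKM. Wee2, the oocyte kinase that holds Cdk1 in check, measured 11.2 and 19.3 RPKM, and Mad2l1 3.64 and 6.12 RPKM, while Cdc25b, the phosphatase that starts maturation, measured 4.46 and 2.37 RPKM and Pde3a, which breaks down cyclic AMP in the oocyte, 1.54 and 1.03 RPKM. Of 14 chromatin and DNA methylation genes 2 were higher in WT 1, the cofactor gene Dnmt3l (3.31 against 0.543 RPKM, 6.09-fold) and the maintenance methyltransferase gene Dnmt1 (31.4 against 12.1 RPKM, with 8.33 to 11.7 RPKM in the other libraries). Trim28 and Smarca4, which many cell types express, measured 37.1 and 32.8 RPKM in WT 1 and 45.3 and 29.1 RPKM in LXR DKO 1, and Kmt2b 2.63 and 3.02 RPKM.

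Among 17 genes of RNA storage and decay, only Zfp36l2, an RNA decay factor, was past the limit (45.1 against 22.3 RPKM, 22.6 to 38.0 RPKM in the others). A count of 1 of 17 is near the 4.14% of all genes that were higher in WT 1. The deadenylase gene Cnot7 measured 43.3 and 48.1 RPKM, the decapping gene Dcp1a 18.9 and 28.6 RPKM, Lsm14b 8.89 and 13.8 RPKM, and Cpeb1, which binds the cytoplasmic polyadenylation element, 8.84 and 6.18 RPKM. Of 7 fertilization genes, Izumo1r, the egg's sperm receptor Juno, was higher in WT 1 (3.24 against 1.01 RPKM), while Cd81, Plat and Itpr1, which other cells express too, measured 94.2, 171 and 8.56 RPKM in WT 1 and 98.2, 115 and 9.31 RPKM in LXR DKO 1. Regulators and receptors were split: Sall4 (8.84 against 3.14 RPKM) and Kit, the oocyte receptor of Kit ligand (4.10 against 1.84 RPKM, with 0.358 to 3.35 RPKM elsewhere), were higher in WT 1, and Sebox (1.02 against 2.81 RPKM) and Accsl (25.97 against 53.3 RPKM) in LXR DKO 1. Zbed3, a maternal-effect gene, was the most abundant gene of these lists in WT 1 and LXR DKO 1, at 273, 12.3 and 14.8 RPKM across WT, 501, 19.8 and 11.3 across LXR DKO, and 25.0, 78.6 and 48.6 across transgenic libraries, and Spin1 measured 161 and 166 RPKM in WT 1 and LXR DKO 1. Of 69 genes of these lists tested across genotypes with limma, 2 fell in LXR DKO minus WT, against 7.12% of all genes, and 0 rose, against 3.47%. They were Zfp36l2 (-0.60 ± 0.16, adjusted p = 0.0478) and the insulator gene Ctcf (-0.39 ± 0.11, adjusted p = 0.0492), the latter named after its value was seen. Neither transgenic minus WT nor transgenic minus LXR DKO had a call among the 69, which makes 0 of 69 in each. Over all genes 5.15% were called higher and 6.72% lower in the former and 0.0548% and 0.0609% in the latter, so 0 of 69 in transgenic minus LXR DKO is near the background. At an unadjusted p under 0.05 in limma there were 6 lower and 0 higher in transgenic minus WT, and 0 in transgenic minus LXR DKO. LXR DKO minus WT had 1 higher and 4 lower at that limit. The share of all genes at that limit was not counted, so these counts have no background. With limma-voom, 0 of 69 were called in all 3 comparisons.

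Markers of the cleaving embryo were at or near 0. Of 9 markers of the 2-cell embryo, such as Zscan4c and Zfp352, all were below 1 RPKM in both libraries, and they summed to 1.40 RPKM in WT 1 against 0.122 RPKM in LXR DKO 1. In WT 1 4 of the 9 and in LXR DKO 1 6 of the 9 were at 0. The granulosa and cumulus markers beside these oocyte transcripts summed to 1497 RPKM in WT 1 against 894 RPKM in LXR DKO 1, and the oviduct markers to 439 and 573 RPKM.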

How the data were processed

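RNA sequencing of total RNA from 9 mouse corona radiata samples was examined as 1 matrix of RPKM values that the authors deposited, with 1 column per library, each assigned by its name; 0 columns of values were unused. Transgenic columns, whose names depart from the labels by 1 letter, were recognised by TG and their number. Per the submitters' processing notes the mm10 build, DESeq2 1.2.8, HTSeq 0.5.4p5, HISAT2 2.1.0 and cutadapt were used, with no roles stated. Not given in the sources used here are the annotation, the strand setting and the treatment of multimapping reads.

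Reads were worked back from the RPKM values with GENCODE M21 exon lengths: for 37146 of 37863 genes above 0 (98.1%), all 9 values were whole to within 0.02 reads. Library scales of 31086718 to 47038045 reads follow from this. Values were tested as log2(RPKM + 1) with limma 3.58.1 (R 4.3.3), genotype as the only factor, all 9 libraries, genes of at least 1 RPKM in at least 3 libraries, and Benjamini-Hochberg adjustment at 0.05; the pseudocount of 1 understates changes of low genes. The design allowed for counts, which the file does not hold. The model was tested on simulated data in which all genes had the same spread and no library was oocyte-rich. That test thus does not cover the members, whose spread comes largely from single libraries. WT 1 and LXR DKO 1 were compared by ratio with no test, with values under 3 reads set to 3 reads. Alternatives were another pseudocount, other filters, quantile normalization, 2 genotypes at a time, each library left out, both oocyte-rich libraries left out, a replicate block, limma-voom on worked-back reads, and other scales, fold limits and minimums for the ratio.

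The members and lists were chosen with earlier results of these data known. All 40 members were named; of each other oocyte list, the 2 highest in WT 1, the 2 highest in LXR DKO 1 and the 2 with the largest ratio each way. Promoters came from a RefSeq table of GRCm38.p6. Oog1 transcripts were aligned to those of its copies in GENCODE M21 with blastn 2.17.0.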

Additional observations from a re-analysis of the deposited data

How the results depend on the processing

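The counts of members called across genotypes depended on the oocyte-rich libraries. In LXR DKO minus WT the count was 0 with all libraries, 0 to 1 with each library left out in turn (1 without LXR DKO 1) and 1 without both WT 1 and LXR DKO 1. Without both it was 1 in transgenic minus LXR DKO and 10 in transgenic minus WT; with 1 RPKM required in only 2 libraries, a setting chosen after seeing the data, the counts were 1, 1 and 11. These settings hold fewer samples by construction, and with 2 libraries in an arm the spread is shared with the other groups. WT 1 and LXR DKO 1 were left out for their high levels of these same members, so the direction of those calls is partly set by the choice. Between WT 1 and LXR DKO 1, dividing by the members' median gave 9 higher in WT 1 and 18 higher in LXR DKO 1 in place of 19 and 1, which follows from the lower median in LXR DKO 1; the 4 other settings kept both counts within 1.5 times. Single genes changed sign with the library left out. H1foo ranged from -1.05 to 3.56 in LXR DKO minus WT, from -1.51 to 2.05 in transgenic minus LXR DKO and from -0.38 to 3.58 in transgenic minus WT (adjusted p 0.246 to 0.965 in the contrasts with WT). Gdf9 ranged from -1.38 to 2.62, from -1.61 to 1.53 and from -0.95 to 2.25 in the same order, and was 1.53 in transgenic minus LXR DKO without both libraries. Tle6 ranged from -0.25 to 0.17 in transgenic minus LXR DKO and was 0.17 without both. Oog1 kept its direction under every alternative and ranged from -1.92 (adjusted p = 0.0173, without LXR DKO 1) to -0.28 in LXR DKO minus WT. Over all genes, calls higher and lower in LXR DKO minus WT were 570 and 1169, against 313 and 719 without a filter and 249 and 653 when 2 genotypes alone were fitted; in transgenic minus LXR DKO 9 and 10, against 54 and 44 with only the 2 genotypes; in transgenic minus WT 846 and 1103, against 451 and 645 with no filter. Samples with the same replicate number did not all deviate together, with correlations from -0.293 to 0.672. The highest, 0.672, was between WT 1 and LXR DKO 1. Of 9 libraries, 3 correlated best with a library of their own number in another genotype. Whether only some libraries of a number share a batch was not tested. With the replicate block 0 members were called in each contrast, and all-gene calls were 357 and 821, 3 and 5, and 643 and 870. Where a cause is not named, the cause was not tested. Members under 3 reads, most of them in WT 2 and WT 3, cannot be told from 0; their number did not follow depth, as WT 3 is the deepest library.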
